A study of Mus musculus with 2 samples.

Results

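The 44 genes described here are interferon-stimulated genes, named one by one and looked up by Ensembl identifier among the 45318 genes of the count table. All 44 were found, and 41 averaged 1 CPM or more (CPM, counts scaled to library size), the level required of any gene before its ratio was used. The data are poly(A)-selected RNA libraries of leukaemia cells from C57Bl/6 mice, driven by MLL/AF9, an oncogenic fusion found in acute myeloid leukaemia. One library came from GFP-positive blasts sorted from the bone marrow of leukaemic mice given brequinar, which inhibits dihydroorotate dehydrogenase, the mitochondrial enzyme of pyrimidine synthesis, and the other from mice given vehicle. Both libraries share the fusion, the GFP mark and the sort. The sources used here give neither dose, duration nor age, nor how many animals each library pools. With 1 library per treatment, differences lack a replicate check and carry no p-value.

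Interferons are secreted proteins that bind paired receptors on the cell surface. Type I interferons signal through the kinases Jak1 and Tyk2 to a complex that holds Stat2 and Irf9 and binds the interferon response element in promoters, whereas interferon gamma acts mainly at gamma-activated sites. The induced genes encode sensors of foreign nucleic acid, enzymes that destroy or modify viral RNA, GTPases, ubiquitin-like modifiers and the factors of the pathway itself. Blood cells express many of these genes at a low level without infection.

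Most of the genes were higher in the brequinar library, by a modest amount and not uniformly. Of the 41 genes, 14 (34.1%) were higher by 2-fold or more in the brequinar library, against a background of 6.45% of all 11504 genes tested, and 1 (Oasl1) was at least 2-fold lower, against a background of 4.40%. Ifit3, a higher gene with 0.424 CPM in the vehicle library, passed the filter only through the brequinar library. Oasl1, with 0.818 CPM in the brequinar library, passed only through the vehicle library. The log2 ratio (brequinar over vehicle, with a prior count of 2) was above 0 for 33 of the 41, against 50.1% of all genes. Its median was 0.63 over the 41 genes and 0.00029 over all genes tested. These genes were chosen with earlier results of these data known, which limits what the contrast with the background can show. For 11 of the 14 higher genes the whole exact 95% counting interval lay beyond 2-fold (background 5.22%), and for none of the 41 did it lie beyond 2-fold on the lower side (background 2.50%). Intervals cover counting error only, and reads amplified without molecular identifiers are not independent molecules. In such bulk libraries a different number of cells of a type and a different amount of RNA per cell cannot be told apart.

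**Figure D1:**
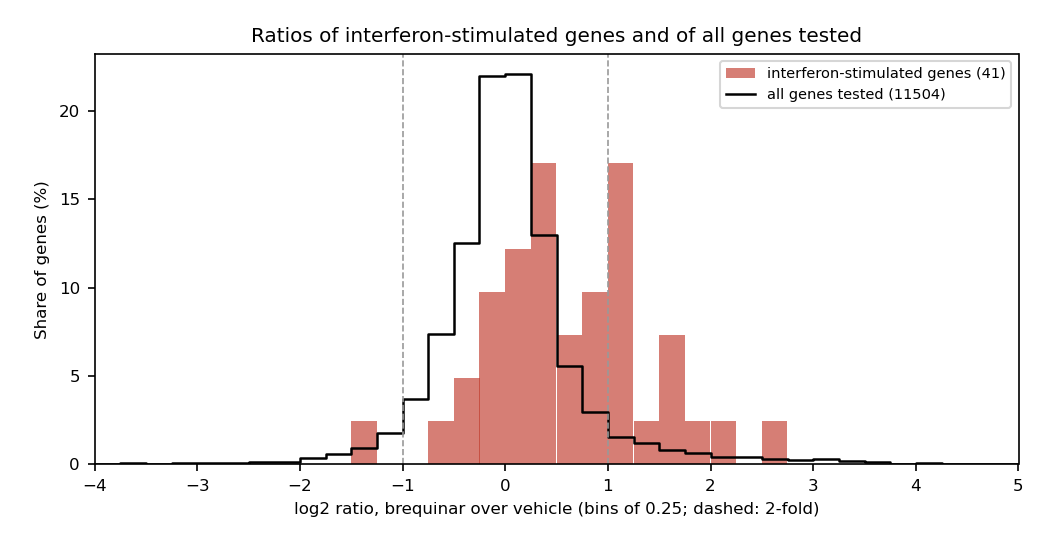
Share of genes (%) by log2 ratio of brequinar over vehicle, in bins of 0.25, for the 41 interferon-stimulated genes (bars) and all 11504 genes tested (line); dashed lines mark 2-fold. The bars are displaced to the right of the line, with a median of 0.63 for the interferon-stimulated genes.

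The libraries were of similar depth, with 47950714 gene counts in the brequinar library and 47935476 in the vehicle library, so that a single count was worth 0.0215 CPM in the brequinar library and 0.0202 CPM in the vehicle library. Over all genes tested 6.45% were at least 2-fold higher and 4.40% lower, which is the background for each list that follows. Of 12 genes that mark this leukaemia, 1 was at least 2-fold higher and 4 were lower, with a median log2 ratio of -0.54. Their sum was 4983 CPM in the brequinar library and 12515 CPM in the vehicle library. All 12 were present in both, with Hoxa9 at 231 CPM in the brequinar library and 238 CPM in the vehicle library, and Meis1 at 87.4 CPM with brequinar and 71.6 CPM with vehicle. Mpo, a gene of early granulocyte precursors, had 979 CPM with brequinar and 5912 CPM with vehicle, and the stem cell factor receptor Kit 76.5 CPM with brequinar and 180 CPM with vehicle. Markers of other or more mature cells differed between the libraries as well. Of 13 tested markers of resident macrophages 11 were at least 2-fold higher, with a median log2 ratio of 2.99. Among these, C1qa, C1qc, Mrc1, Cd163, Spic and Siglec1 were under 1 CPM in the vehicle library. They passed the filter only through the brequinar library, so the count and the median rest partly on low vehicle values. The sum of all 14 listed was 987 CPM in the brequinar library and 647 CPM in the vehicle library. Most of it came from the 2 markers within 2-fold, Vcam1 (496 CPM with brequinar and 370 CPM with vehicle) and Adgre1 (225 CPM with brequinar and 221 CPM with vehicle). All 13 markers of maturing neutrophils were higher (summed 25039 CPM in the brequinar library and 1849 CPM in the vehicle library), as were 12 of 13 tested erythroid markers (480 CPM with brequinar and 245 CPM with vehicle over all 14 listed). Markers of monocytes split evenly, with 2 of 10 higher and 2 lower (1065 CPM with brequinar and 1058 CPM with vehicle). Of 7 tested markers of plasmacytoid dendritic cells, a main source of type I interferon, 2 were higher (Siglech and Runx2) and 2 lower (Irf8 and Klk1). The sum over all 10 listed, which include Bst2, was 143 CPM in the brequinar library and 151 CPM in the vehicle library. Most of it came from Runx2 (71.9 CPM with brequinar and 35.8 CPM with vehicle), Bst2 (50.2 and 57.0 CPM) and Irf8 (13.8 and 51.5 CPM). Siglech had 1.81 CPM with brequinar and 0.505 CPM with vehicle, and Klk1 had 0.344 and 2.28 CPM. Irf8 is also in the signalling list below. The 12 T and NK cell markers summed to 11.2 CPM in the brequinar library and 24.7 CPM in the vehicle library. Most of this came from the 1 marker that passed the filter, which was lower (7.45 CPM with brequinar and 22.0 CPM with vehicle). Cd3e had 3 counts in the brequinar library and 4 in the vehicle library. B and plasma cell markers summed to 22.0 CPM with brequinar and 35.1 CPM with vehicle. No marker in these lists was at 0 in both libraries. The part of these other cells and of neutrophil maturation in the interferon-stimulated values was not tested.

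Promoter sequences were searched for motifs of the pathway, and exact matches of the response element were found in some of the genes only. The sequences come from RefSeq (GRCm38.p6; 250 bases before to 50 bases after each start), where 33 of the 44 genes had at least 1 entry. Those without one were Dhx58, Zbp1, Oas2, Mx1, Mx2, Usp18, Parp9, Parp14, Rtp4, Ifi27 and Tor3a. The motifs searched, on both strands, were GAAANNGAAA for the interferon response element and TTCNNNGAA for the gamma-activated site. The response element was matched in 16 of the 33 genes (48.5%) and in 3.99% of all 27025 genes with a promoter entry. In 12 of the 16 the matches lay upstream of the start, and in Ddx58, Eif2ak2, Ifih1 and Ifitm3 after it. The gamma-activated site was matched in 9 of the 33 (27.3%) and in 9.55% of all genes. Matches of both motifs overlapped in Bst2 and Ifitm3. The windows printed here read 5′ to 3′ on the strand of the gene, end upstream of the RefSeq start and carry each match of the response element in capitals. A match on the other strand appears as its reverse complement. Isg15, Ifit3 and Oas3 stand for higher genes with 3 overlapping, 2 and 1 matches in the window.
Isg15 (chr4:156200859-156200938, minus strand): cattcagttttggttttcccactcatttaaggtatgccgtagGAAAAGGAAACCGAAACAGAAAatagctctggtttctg
Ifit3 (chr19:34583349-34583428, plus strand): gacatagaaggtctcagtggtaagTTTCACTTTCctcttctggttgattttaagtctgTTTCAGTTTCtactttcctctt
Oas3 (chr5:120777700-120777779, minus strand): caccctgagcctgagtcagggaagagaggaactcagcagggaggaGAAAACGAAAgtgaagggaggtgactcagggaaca

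Gbp2, Gbp7 and Gbp3 are neighbours on chromosome 3 whose promoters all match the response element although their ratios differ in direction. The Gbp7 window also holds a gamma-activated site, which is left in lower case and begins at position -87 from the start. In Irf1 the capitals mark the gamma-activated site instead, and its entries hold no match of the response element.
Gbp2 (chr3:142620563-142620642, plus strand): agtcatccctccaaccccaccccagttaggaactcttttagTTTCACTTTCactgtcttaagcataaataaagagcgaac
Gbp7 (chr3:142530236-142530315, plus strand): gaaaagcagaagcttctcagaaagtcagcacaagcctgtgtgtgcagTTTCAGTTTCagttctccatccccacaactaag
Gbp3 (chr3:142559944-142560023, plus strand): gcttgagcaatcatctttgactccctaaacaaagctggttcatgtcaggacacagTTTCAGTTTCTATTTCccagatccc
Irf1 (chr11:53769894-53769973, plus strand): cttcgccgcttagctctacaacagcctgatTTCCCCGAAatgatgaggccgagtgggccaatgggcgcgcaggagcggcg

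Genes at least 2-fold higher occurred both with and without a match of the response element. Zbp1, Oas2, Parp14 and Rtp4 were higher too, but have no promoter entry and enter neither group. Whether the response element bears on the ratio was not tested. All 16 genes with a match were tested; 6 of them were at least 2-fold higher and none lower, and their log2 ratios ran from -0.71 to 2.54 with a median of 0.72. Of the 16 tested genes with an entry and no match, 4 were higher and 1 lower, with ratios from -1.30 to 1.71 and a median of 0.45. Over the 9 genes with a gamma-activated site the median was 0.22 with 3 higher, and over the 23 tested genes without one it was 0.67 with 7 higher. A match is a description of letters and not a site shown to be bound. A gene without a match may still hold an element with other letters or outside the 300 bases searched.

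**Figure D2:**
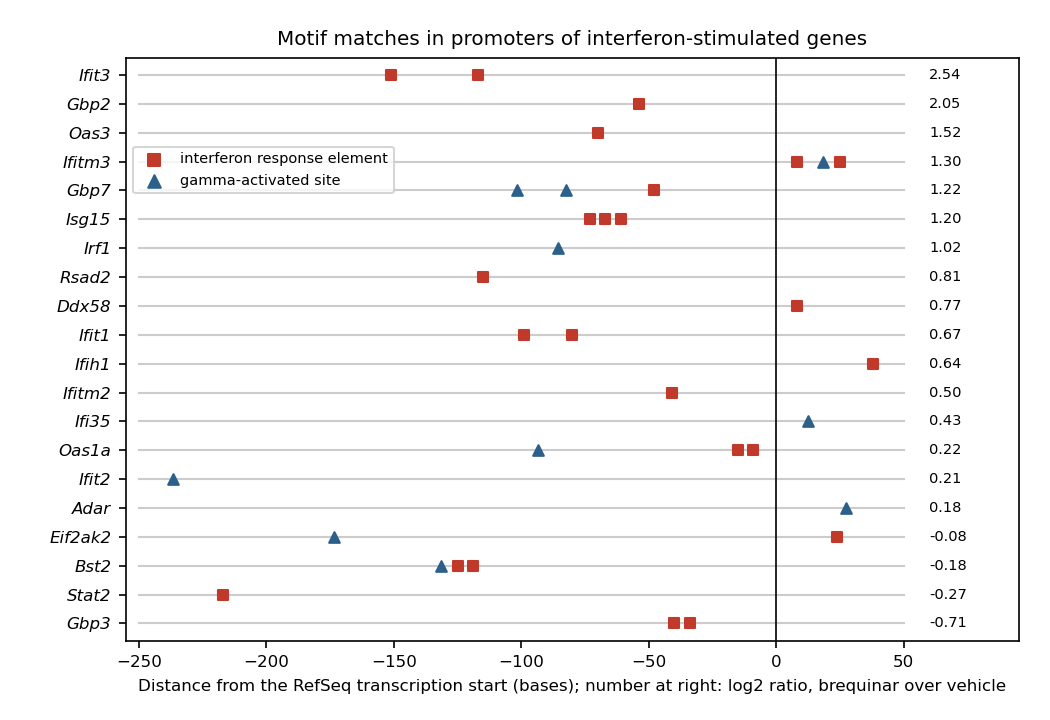
Position of motif matches, in bases from the RefSeq transcription start (vertical line), for the interferon-stimulated genes with at least 1 match; squares mark the response element, triangles the gamma-activated site, matches of all listed starts of a gene share its line, and the number at right is the log2 ratio of brequinar over vehicle. Genes are ordered by ratio, and matches of the response element occur from Ifit3 (2.54) down to Gbp3 (-0.71).

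Among the transcription factors of the pathway, Irf1 was 2.03-fold higher (interval 1.94 to 2.13). This factor, induced mainly by interferon gamma, stood at 108 CPM in the brequinar library and 52.9 CPM in the vehicle library. Irf7, the amplifier of type I interferon production, stayed just within 2-fold with 19.6 CPM in the brequinar library and 10.2 CPM in the vehicle library (log2 ratio 0.94). Irf9, the DNA-binding part of the type I complex, had 61.0 CPM in the brequinar library and 36.2 CPM in the vehicle library. Stat2, its partner, had 35.2 CPM in the brequinar library and 42.4 CPM in the vehicle library, a log2 ratio of -0.27. The factors thus differed in direction, with 3 of 4 ratios above 0. Irf1 was the gene nearest to the threshold from above. Its log2 ratio was 0.93 with total-count scaling and 0.988 with upper-quartile scaling, no longer 2-fold in either.

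The sensors of nucleic acid were led by Zbp1. Its product binds Z-form nucleic acid and can start necroptosis. Zbp1 (ENSMUSG00000027514; chromosome 2, 173206612 to 173218923, minus strand) had 1777 counts in the brequinar library and 476 in the vehicle library, or 38.3 CPM with brequinar and 9.62 CPM with vehicle, a 3.98-fold difference (interval 3.59 to 4.41). Ddx58, which encodes RIG-I, had 43.4 CPM in the brequinar library and 25.5 CPM in the vehicle library, and Ifih1, which encodes MDA5, had 75.8 CPM with brequinar and 48.7 CPM with vehicle. Dhx58, their relative LGP2 that lacks signalling domains, had 18.6 CPM in the brequinar library and 14.4 CPM in the vehicle library. These helicase genes had log2 ratios of 0.77, 0.64 and 0.36 and so stayed within 2-fold. Trim25, a ubiquitin ligase that acts on RIG-I, was nearly level at 59.6 CPM in the brequinar library and 61.8 CPM in the vehicle library.

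Of 13 RNA-binding proteins and nucleotide enzymes 5 were at least 2-fold higher and 1 was lower, against 6.45% and 4.40% of all genes tested. The Ifit proteins bind foreign RNA, and Ifit3 had the highest log2 ratio of all 41 genes at 2.54, from 124 counts in the brequinar library and 21 in the vehicle library (2.67 CPM with brequinar and 0.424 CPM with vehicle; interval of the fold 3.94 to 10.5). Ifit3b, its near-identical neighbour on chromosome 19, had 47 counts in the brequinar library and 19 in the vehicle library, and reads that map to both copies are outside the gene counts, so the level of each is uncertain. Ifit1 had 5.77 CPM in the brequinar library and 3.62 CPM in the vehicle library, and Ifit2 had 33.7 CPM with brequinar and 29.1 CPM with vehicle. The high ratio of Ifit3 therefore stood beside smaller ratios of 0.67 for Ifit1 and 0.21 for Ifit2.

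Samd9l, an antiviral protein that represses translation and acts as a suppressor of myeloid malignancy, was also well above 2-fold. It had 7496 counts in the brequinar library and 2438 in the vehicle library (161 CPM with brequinar and 49.3 CPM with vehicle), a 3.28-fold difference (interval 3.13 to 3.43). Cmpk2, a mitochondrial kinase of the pyrimidine nucleotides UMP and CMP, was 2.23-fold higher (interval 2.09 to 2.37) with 64.4 CPM in the brequinar library and 28.9 CPM in the vehicle library. Rsad2, or viperin, which lies beside Cmpk2 on chromosome 12 and turns CTP into a chain terminator, had 11.9 CPM in the brequinar library and 6.75 CPM in the vehicle library and stayed within 2-fold (log2 ratio 0.81). Eif2ak2, the RNA-activated kinase PKR, had 54.2 CPM in the brequinar library and 57.4 CPM in the vehicle library, and Adar, which edits adenosine in double-stranded RNA, had 79.7 CPM with brequinar and 70.3 CPM with vehicle. Both were nearly level, and 16.8% of the exon bases of Adar overlap Chrnb2 on the opposite strand.

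The oligoadenylate synthetases, which make the activator of RNase L, differed among themselves too. Oas3 was 2.88-fold higher (interval 2.55 to 3.27; 20.2 CPM in the brequinar library and 6.99 CPM in the vehicle library) and Oas2 was 2.09-fold higher (interval 1.87 to 2.33; 20.5 CPM with brequinar and 9.80 CPM with vehicle). Oas1a, on the same stretch of chromosome 5, had 47.0 CPM in the brequinar library and 40.4 CPM in the vehicle library. Oasl2 had 6.89 CPM in the brequinar library and 4.43 CPM in the vehicle library. Oasl1, which in mice restrains the translation of Irf7, was 2.54-fold lower (interval of the lower fold 1.74 to 3.80) from 38 counts in the brequinar library and 103 in the vehicle library. Of the 8 members of the family that were listed and tested, Oas1b, Oas1c and Oas1g included, 7 had ratios above 0. The Oas1 genes are close copies whose shares of reads are uncertain.

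**Figure D3:**
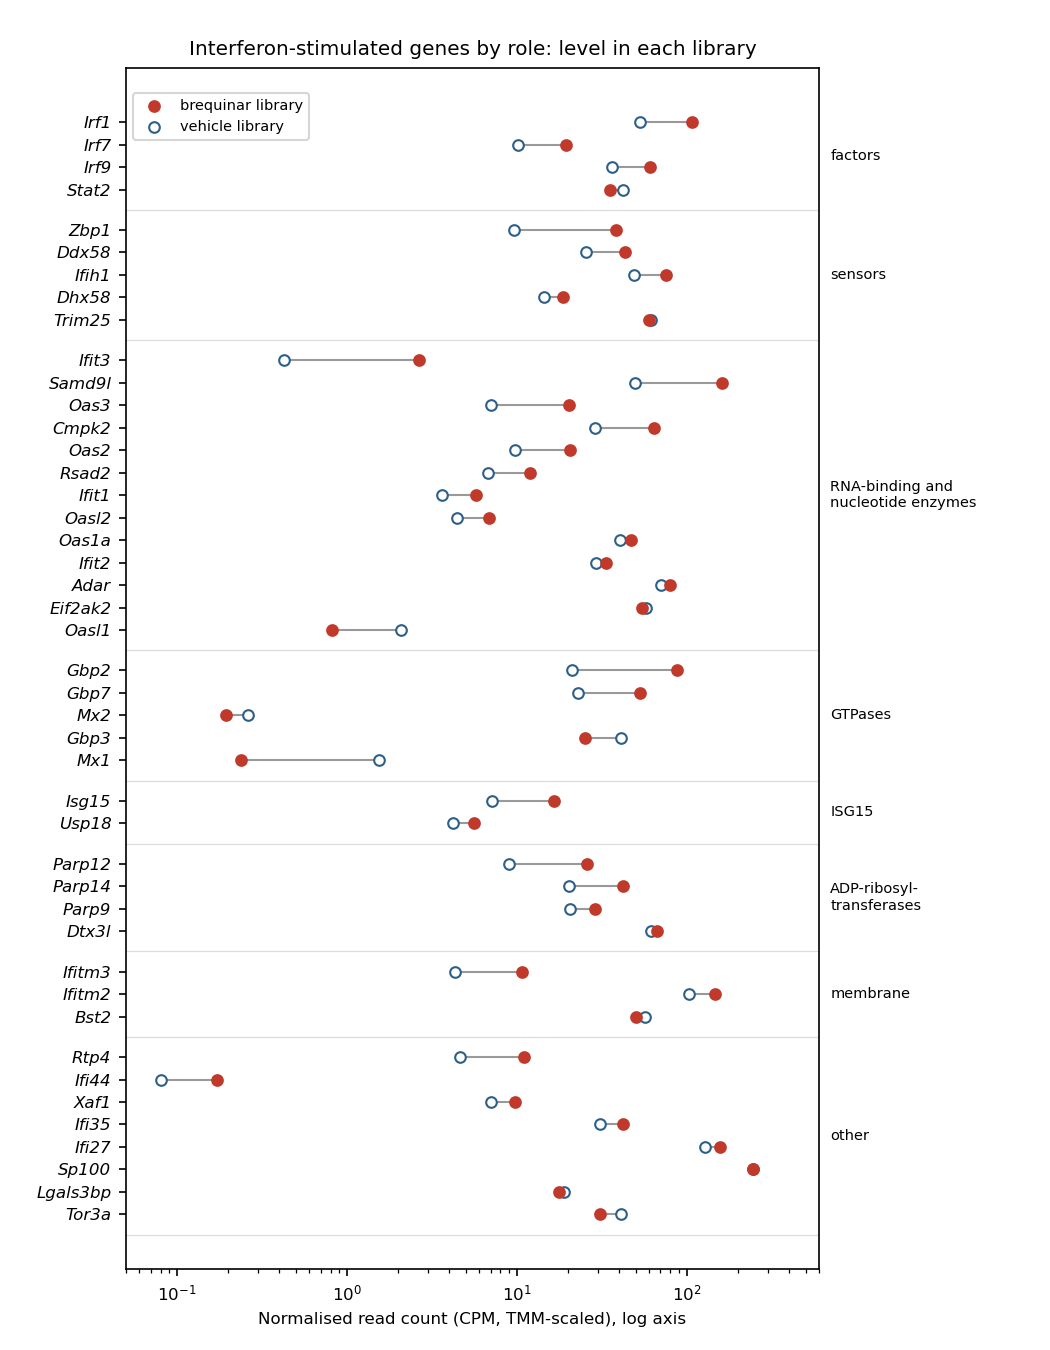
Level of each of the 44 interferon-stimulated genes (CPM, log axis) in the brequinar library (filled) and the vehicle library (open), grouped by role; each point is 1 library. Filled points lie to the right of open ones for most genes, with the widest gaps to the right for Ifit3, Gbp2 and Zbp1 and to the left for Mx1 and Oasl1.

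The GTPases spanned nearly the whole range of ratios. Gbp2, a guanylate-binding protein that attacks the membranes around intracellular pathogens, had 4085 counts in the brequinar library and 1050 in the vehicle library (87.9 CPM with brequinar and 21.2 CPM with vehicle) and was 4.14-fold higher (interval 3.87 to 4.44). Gbp7 was 2.34-fold higher (interval 2.18 to 2.51; 53.2 CPM in the brequinar library and 22.8 CPM in the vehicle library). Gbp3 was the exception, with 25.2 CPM in the brequinar library and 41.2 CPM in the vehicle library (log2 ratio -0.71). It starts at 142560026 on chromosome 3 (GRCm38), between Gbp7, which starts at 142530342, and Gbp2, which starts at 142620602. These starts are those of GENCODE, whereas the printed windows are placed by RefSeq starts. The Gbp2 window, which ends at 142620642, therefore reaches past the Gbp2 start given here. For Gbp7, 11.3% of exon bases overlap Gm43802 on the same strand. Mx1 and Mx2 averaged under 1 CPM, and their ratios enter no count. Mx1, an inhibitor of influenza virus whose gene is disrupted in the C57Bl/6 strain, had 11 counts in the brequinar library and 76 in the vehicle library (0.237 CPM with brequinar and 1.54 CPM with vehicle), the lowest log2 ratio of the 44 genes at -2.50. Mx2 had 9 counts in the brequinar library and 13 in the vehicle library.

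Isg15, a ubiquitin-like modifier attached to other proteins, was 2.31-fold higher (interval 2.03 to 2.62) with 16.6 CPM in the brequinar library and 7.17 CPM in the vehicle library. Usp18, which removes Isg15 and blocks the type I receptor, had 5.58 CPM in the brequinar library and 4.18 CPM in the vehicle library (log2 ratio 0.41). Among enzymes of ADP-ribosylation, Parp12 was 2.85-fold higher (interval 2.56 to 3.19; 25.8 CPM in the brequinar library and 9.03 CPM in the vehicle library), and Parp14 was 2.08-fold higher (42.0 CPM with brequinar and 20.2 CPM with vehicle). Parp9 had 28.9 CPM in the brequinar library and 20.5 CPM in the vehicle library, and Dtx3l, the ubiquitin ligase that binds Parp9, had 66.5 CPM with brequinar and 61.6 CPM with vehicle. The genes of these partners overlap on opposite strands, with 9.40% of the exon bases of Parp9 and 8.0% of those of Dtx3l shared, and the strand setting of the counting is not given in the sources used here. With total-count scaling the log2 ratios of Oas2 and Parp14 were both 0.97, just within 2-fold.

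The membrane proteins that hinder virus entry or release differed among themselves. Ifitm3 was 2.48-fold higher (interval 2.11 to 2.92; 10.7 CPM in the brequinar library and 4.32 CPM in the vehicle library). Ifitm2, on the same stretch of chromosome 7, had 146 CPM in the brequinar library and 103 CPM in the vehicle library (log2 ratio 0.50). Bst2, or tetherin, had 50.2 CPM in the brequinar library and 57.0 CPM in the vehicle library. Ifitm6, outside the 44 genes and next to Ifitm3, had 74.5 CPM in the brequinar library and 10.9 CPM in the vehicle library, a 6.82-fold difference (interval 6.23 to 7.48).

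Of the remaining 8 genes, Rtp4, a receptor chaperone that in mice damps the antiviral response, was 2.36-fold higher (interval 2.02 to 2.77; 10.98 CPM in the brequinar library and 4.65 CPM in the vehicle library). The others lay within 2-fold or under the filter. Ifi27 had 157 CPM in the brequinar library and 128 CPM in the vehicle library, Ifi35 had 42.0 CPM with brequinar and 31.0 CPM with vehicle, and Xaf1, an antagonist of the apoptosis inhibitor XIAP, had 9.69 CPM with brequinar and 7.03 CPM with vehicle. Sp100, a component of PML nuclear bodies, was level with 247 CPM in the brequinar library and 245 CPM in the vehicle library; the sign of its log2 ratio (0.013) turned with total-count and upper-quartile scaling. Lgals3bp, a secreted binder of galectin, had 17.7 CPM in the brequinar library and 18.9 CPM in the vehicle library, and Tor3a, an ATPase of the endoplasmic reticulum, had 30.9 CPM with brequinar and 41.2 CPM with vehicle. For Ifi35, 16.8% of exon bases overlap Gm11626 on the opposite strand. Ifi44 was barely detected, with 8 counts in the brequinar library and 4 in the vehicle library.

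**Figure D4:**
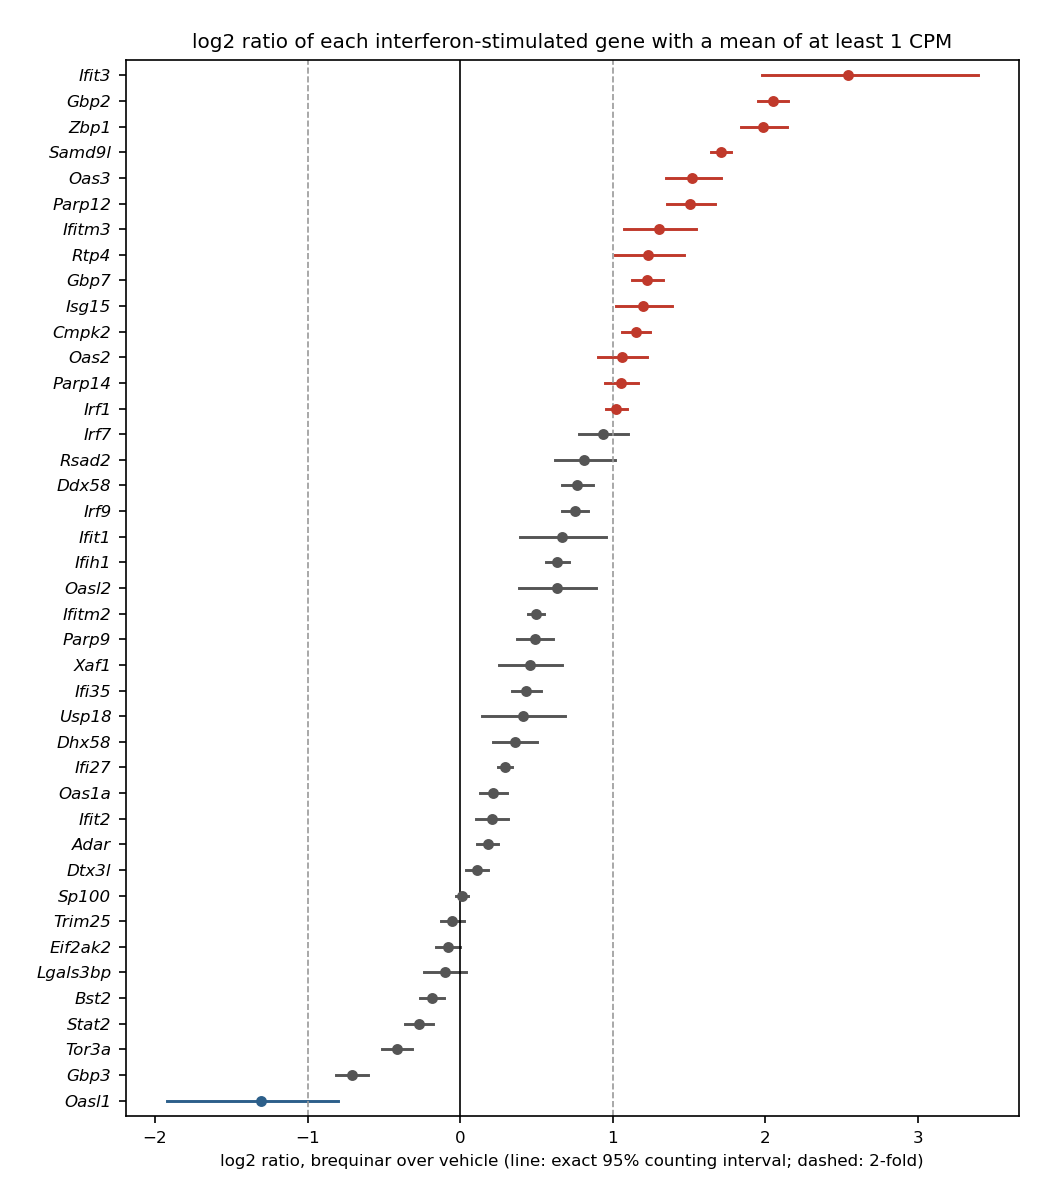
Log2 ratio of brequinar over vehicle for the 41 tested genes, in order, with the exact 95% counting interval as a line and 2-fold as dashed lines; red points are at least 2-fold higher and the blue point (Oasl1) at least 2-fold lower. The intervals of Oas2, Parp14 and Irf1, and of Irf7 just below them, are among those that cross the upper dashed line.

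Levels per length of merged exons set the genes in an order that was the same at the top in both libraries. Ifitm2 was first, with 223 CPM per kb in the brequinar library and 158 CPM per kb in the vehicle library. Ifi27 followed with 107 CPM per kb in the brequinar library and 87.3 CPM per kb in the vehicle library, and Bst2 with 55.6 CPM per kb with brequinar and 63.1 CPM per kb with vehicle. None of these was among the 14 higher genes. Ifitm2 had 6779 counts in the brequinar library and 5112 in the vehicle library, a 1.41-fold difference (interval 1.36 to 1.47). Ifi27 had 7298 counts in the brequinar library and 6339 in the vehicle library (1.23-fold, interval 1.19 to 1.27). For Bst2, with 2331 counts in the brequinar library and 2821 in the vehicle library, the brequinar library was 1.14-fold lower. Gbp2 was the fourth of the 44 in the brequinar library at 35.0 CPM per kb but number 16 in the vehicle library at 8.43 CPM per kb. Sp100 (32.6 CPM per kb in the brequinar library and 32.4 in the vehicle library) and Oas1a (24.9 CPM per kb with brequinar and 21.4 with vehicle) were high in both. The ratio was 1.01 for Sp100 (interval 0.983 to 1.04) and 1.16 for Oas1a (interval 1.09 to 1.24), each below 2-fold throughout its interval.

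Ligands of the pathway were almost undetected in the same cells. Of 21 interferon genes 20 had no count in either library, among them Ifnb1 and all listed genes of interferon alpha; a count of 0 allows up to 0.0646 CPM in the brequinar library and 0.0606 CPM in the vehicle library (3 counts). Interferon alpha genes are close copies, and multimapping reads, 6.92% of reads in the brequinar library and 7.39% in the vehicle library, are not in the gene counts. Ifng had 2 counts in the brequinar library and 0 in the vehicle library. Interferon made by other marrow cells was not measured in these sorted libraries.

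The receptors were expressed in both libraries. Ifnar1 had 41.2 CPM in the brequinar library and 56.0 CPM in the vehicle library, and Ifnar2 had 41.2 CPM with brequinar and 54.1 CPM with vehicle. For interferon gamma, Ifngr1 had 286 CPM in the brequinar library and 404 CPM in the vehicle library, and Ifngr2 had 34.6 CPM with brequinar and 24.7 CPM with vehicle. Il10rb, shared with interleukin 10, had 35.9 CPM in the brequinar library and 44.9 CPM in the vehicle library. Ifnlr1, the receptor of interferon lambda, was the single one of 6 past 2-fold, 7.61-fold higher (interval 4.33 to 14.4) at a low level of 2.15 CPM in the brequinar library and 0.283 CPM in the vehicle library. Ifnlr1 passed the filter only through the brequinar library. The median log2 ratio of the receptors was -0.36, and 6.45% of all genes tested were at least 2-fold higher.

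In the signalling chain 0 of 11 genes were higher and 1 was lower, against 6.45% and 4.40% of all genes tested. The median log2 ratio was 0.12. With total-count scaling 2 were lower and the median was 0.029. Jak1 had 263 CPM in the brequinar library and 192 CPM in the vehicle library, Tyk2 had 51.1 CPM with brequinar and 72.5 CPM with vehicle, and Irf3 had 53.1 CPM with brequinar and 51.1 CPM with vehicle. Irf8, a transcription factor needed by monocytes and dendritic cells, was 3.74-fold lower (interval of the lower fold 3.43 to 4.09), with 13.8 CPM in the brequinar library and 51.5 CPM in the vehicle library.

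Genes that promote or restrain the induction of interferon had 2 of 17 higher and 1 lower. Over all genes tested 6.45% were higher and 4.40% lower. Samhd1, which degrades deoxynucleotides and belongs to those that restrain induction, had 239 CPM in the brequinar library and 89.5 CPM in the vehicle library. Tlr8 had 2.45 CPM with brequinar and 1.01 CPM with vehicle. The lower one was Tlr9, a sensor of unmethylated DNA, with 0.818 CPM in the brequinar library and 3.25 CPM in the vehicle library. Among 13 brakes and related genes 2 were higher, against the same background of 6.45%. One was Socs3, a cytokine-induced inhibitor of Jak kinases (2.65 CPM in the brequinar library and 0.566 CPM in the vehicle library). The other was Isg20, an exonuclease that degrades RNA (9.28 CPM with brequinar and 4.16 CPM with vehicle). The median log2 ratio of the 13 genes was 0.63, and with genes required to average 5 CPM it was 0.37, with 1 gene higher.

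**Figure D5:**
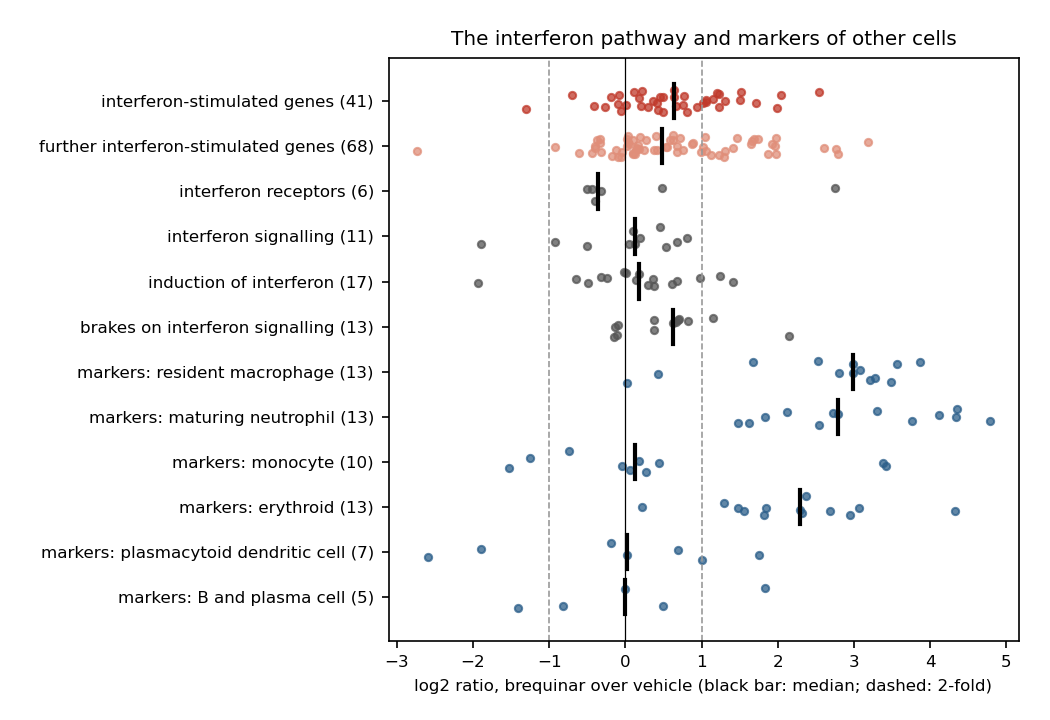
Log2 ratio of brequinar over vehicle for each tested gene (points; number tested in brackets) of the interferon-stimulated genes, the other lists of the pathway and markers of other cells; black bars are medians and dashed lines 2-fold. Medians are 0.63 for the interferon-stimulated genes, -0.36 for receptors, 2.99 for resident macrophage markers and 2.79 for maturing neutrophil markers. Some of the macrophage markers were under 1 CPM in the vehicle library.

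A further 83 interferon-stimulated genes were listed beside the 44, also with earlier results of these data known. Of 68 tested, 22 were at least 2-fold higher (32.4%) and 1 was lower, with a median log2 ratio of 0.48. Of the higher genes, Gbp4, Gbp9, Tgtp1 and Ifitm1 were under 1 CPM in the vehicle library and passed the filter only through the brequinar library. The lower gene, Ms4a4c, was under 1 CPM in the brequinar library and passed only through the vehicle library. Over all genes tested 6.45% were higher and 4.40% lower. Among the 22 higher genes were the 7 listed immunity-related GTPases of the p47 family. These proteins act on vacuoles of pathogens and respond mainly to interferon gamma. Igtp had 71.9 CPM in the brequinar library and 18.9 CPM in the vehicle library, Irgm2 had 52.0 CPM with brequinar and 14.2 CPM with vehicle, Irgm1 had 66.1 CPM with brequinar and 31.9 CPM with vehicle, and Ifi47 had 27.4 CPM with brequinar and 12.6 CPM with vehicle. Iigp1 had 5.08 CPM in the brequinar library and 1.27 CPM in the vehicle library, Tgtp2 had 5.47 CPM with brequinar and 2.18 CPM with vehicle, and Tgtp1 had 2.02 CPM with brequinar and 0.485 CPM with vehicle. Their log2 ratios ran from 1.05 to 1.97. Igtp and Irgm2 overlap on chromosome 11, and Tgtp1 and Tgtp2 are near copies, so the split of reads within each pair is uncertain.

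Guanylate-binding proteins outside the 44 were higher as well. Of the 7 Gbp genes that were listed and tested 6 passed 2-fold, and among these 7 Gbp3 stood alone in its direction. Gbp4 had 3.47 CPM in the brequinar library and 0.344 CPM in the vehicle library, Gbp9 had 5.62 CPM with brequinar and 0.889 CPM with vehicle, Gbp6 had 5.02 CPM with brequinar and 1.56 CPM with vehicle, and Gbp5 had 12.2 CPM with brequinar and 5.17 CPM with vehicle. Gbp4 and Gbp9 lie in overlapping stretches of chromosome 5, with the same uncertainty. Interferon-induced chemokines for T cells were higher at low levels, with Cxcl9 at 4.59 CPM in the brequinar library and 1.13 CPM in the vehicle library, and Cxcl10 at 11.2 CPM with brequinar and 4.53 CPM with vehicle. Nlrc5, the activator of MHC class I genes, had 29.8 CPM in the brequinar library and 10.8 CPM in the vehicle library, and Cd274, which encodes PD-L1, had 12.5 CPM with brequinar and 6.18 CPM with vehicle.

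Ube2l6, the conjugating enzyme for Isg15, was 3.35-fold higher (interval 3.01 to 3.74; 29.8 CPM in the brequinar library and 8.89 CPM in the vehicle library), more than Isg15 itself. Within the Slfn family, whose products regulate RNA and proliferation, Slfn1 had 19.7 CPM in the brequinar library and 2.81 CPM in the vehicle library, and Slfn2 had 185 CPM with brequinar and 57.3 CPM with vehicle. The other 5 members that were listed and tested lay within 2-fold. Ddx60, Epsti1 and Ifitm1 completed the higher genes, with 28.3, 50.4 and 1.61 CPM in the brequinar library and 10.6, 24.2 and 0.485 CPM in the vehicle library. The 1 lower gene was Ms4a4c, with 0.926 CPM in the brequinar library and 6.39 CPM in the vehicle library. Ly6e, a lipid-anchored surface protein, had 409 CPM in the brequinar library and 777 CPM in the vehicle library (log2 ratio -0.93).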

How the data were processed

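Libraries were poly(A)-selected and strand-preserving, read as 101-base pairs, per the labels' protocols. The authors deposited raw whole-number counts for each gene, with 1 column for each library, assigned through the library's title. The submitters' processing notes name STAR 2.4.2a, Picard 1.99 and 2.2.4 and build mm10; these sources name no counting program, strand setting or annotation release. The table closes with 4 lines of reads that name no gene, 20.2% of reads in the brequinar library and 21.6% in the vehicle library, which were left out. Symbols came from GENCODE M21 (GRCm38), as did coordinates and merged exon lengths.

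CPM came from TMM scaling (edgeR 4.0.16 in R 4.3.3), which shifted log2 ratios by 0.092 against total counts. Ratios used edgeR's prior count of 2, genes needed a mean of 1 CPM, and a gene was called at 2-fold or more, since 1 library per group allows no test. Intervals are exact Clopper-Pearson intervals at 95%, conditional on the summed count, and the floor is 3 counts. Calculations (Python 3.11.15, scipy 1.17.1) were tested on simulated data. By rule every one of the 44 genes is named, and the 14 with the largest absolute ratios and the 6 highest per length are given counts or intervals. Other interferon lists are represented by their genes past 2-fold. Ligands, receptors, Jak1, Tyk2 and Irf3 are given whatever their values. Ly6e, which lay within 2-fold, was added outside this rule. Promoters are those of RefSeq. Members and lists were chosen with earlier results of these data known. Other scalings (DESeq2 1.42.0 size factors, totals, upper quartile), filters, prior counts and thresholds were tried. One gene of the signalling list is not reported singly here.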

Additional observations from a re-analysis of the deposited data

How the results depend on the processing

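With other scalings, prior counts and filters between 11 and 14 of the interferon-stimulated genes were at least 2-fold higher, and their median log2 ratio stayed between 0.54 (total counts) and 0.64 (prior count 0.5). Over the scalings and prior counts, 3 of them changed call (Irf1, Oas2 and Parp14) and 1 changed sign (Sp100). The number lower was 2 without a filter, Mx1 being added, and 0 where genes had to average 5 CPM, which leaves out Oasl1. At 3-fold 4 were higher and 0 lower, at 1.5-fold 21 were higher and 2 lower, and 0 had an interval wholly beyond 2-fold on the lower side. Of the further interferon-stimulated genes 14 were higher and 0 lower (median 0.37) where genes had to average 5 CPM, 13 were higher at 3-fold, 3 were lower at 1.5-fold and 2 were lower with total counts. Over all genes, 2470 of 21287 were higher and 2074 lower without a filter. Where genes had to average 5 CPM, 457 of 9483 were higher and 230 lower. Of the 11504 genes of the main setting, 1456 were higher and 1463 lower at 1.5-fold, and 390 and 161 at 3-fold. Of the same 11504, 288 had an interval wholly beyond 2-fold on the lower side. Leaving out a library leaves no comparison. Low counts limit Ifit3, Oasl1, Mx1, Mx2 and Ifi44, and no setting measures the spread between animals.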
